A study of Rattus norvegicus with 6 samples.

Results

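Solute carriers are the membrane proteins that move sugars, amino acids, phosphate, ions, drugs and metabolites across cell and organelle membranes, and their genes carry the SLC prefix with a number for the subfamily. The members described here were the gene IDs for which the authors' deposited tables give a human symbol of that form, with the mitochondrial carriers of SLC25 (39 IDs) left out. There were 230 such IDs in 47 subfamilies, of 26319 genes in the count table. The symbols SLC6A20, SLC22A25 and SLC28A2 each stood for 2 rat IDs, and 4 IDs carried 2 symbols, such as SLC2A14 or SLC2A3 for ENSRNOG00000008376. Their reads can be split between near-identical copies, so these values are uncertain. SLC9A3R1 and SLC9A3R2, which encode scaffold proteins that anchor carriers, and SLC4A1AP and SLC7A6OS match by name but are not carriers themselves. A carrier is a member only if the authors listed it with a symbol, so carriers missing from those tables are not covered. Why they are missing was not examined. All 230 passed the filter on low counts, 16 of them with a mean under 1 CPM (the usual scaling of counts to a common library total) in at least 1 group.

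Messenger RNA was sequenced from isolated glomeruli, the filtering tufts of the kidney, of Sprague Dawley rats in 3 groups of 2 libraries, 6 in all. The WT group was wild type and received vehicle, at 20.4 and 21.9 weeks of age for replicates 1 and 2. The other groups, of the cohort called advanced, carried a transgene, AT1R, named for the type 1 receptor of angiotensin II. They received vehicle (20.4 and 17.4 weeks) or AC1903 (23.0 and 20.4 weeks), a small molecule inhibitor of the cation channel TRPC5. They are called vehicle and AC1903 from here on, and the labels do not say which promoter drives the transgene. The ages within each group differ, so its libraries came from different rats.

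In the kidney most of the well-known carriers work in the tubule, not in the glomerulus. Proximal tubule cells take glucose, amino acids and phosphate back from the filtrate through sodium-coupled carriers of the apical membrane. On their blood side they take up organic anions and cations for secretion. The loop of Henle and distal tubule reabsorb salt through the SLC12 cotransporters, whereas zinc carriers and the nucleotide sugar carriers of the Golgi serve nearly all cells.

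The libraries held 12325515 to 36026772 expected counts, with the deepest ones in WT, and the members took 0.866% to 1.18% of them. All 10 podocyte markers were measured, and their summed level was 16333 and 14084 CPM in WT, 17736 and 9446 in vehicle and 10717 and 14017 in AC1903. Of the 10, 9 were lower in vehicle than in WT (median log2 difference -0.21). In AC1903, 5 were higher and 5 lower than in vehicle (0.02), and 8 were lower than in WT (-0.19). RNA of the proximal tubule was present too. The 23 measured IDs of 19 proximal tubule markers that are not SLC genes summed to 5048 and 2898 CPM in WT, 7288 and 13931 in vehicle and 7425 and 7241 in AC1903. None of these 23 was at 0 in any library. All 23 were higher in vehicle than in WT (median log2 difference 1.32), 21 were lower in AC1903 than in vehicle (-0.48), and all 23 were higher in AC1903 than in WT (0.91). In bulk RNA, more cells of a type and more RNA per cell cannot be told apart. The part of these markers in the carrier results was not tested here. WT replicate 2 was lowest and vehicle replicate 2 highest in 21 of the 23, against 9% of all genes tested.

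The first comparison asked which carriers differ between transgenic and wild-type rats that received vehicle. A large block of proximal tubule carriers was at higher levels in vehicle, while zinc carriers and nucleotide sugar carriers had medians near their WT levels. No member passed edgeR's quasi-likelihood test at an adjusted p of 0.05, where 0.0745% of all genes did, and limma-voom likewise called 0 members against 0.0521% of all genes. At an unadjusted p under 0.05 in edgeR, 63 members were higher and 7 lower, against 8.57% and 3.35% of all genes. DESeq2 called 39 members higher and 1 lower, against 3.85% and 0.403% of all genes. For these groups, 41 members in the authors' deposited table passed as higher and 1 as lower, against 4.01% and 0.414%, and all 40 DESeq2 calls were among them. The 2 groups did not overlap in 87 members that were higher and 37 that were lower in vehicle, against 20.6% and 23.4% of all genes. Over all members the median log2 difference was 0.15, with 138 positive, beside -0.03 over all genes, of which 46.6% were positive. The DESeq2 count was 1 without vehicle replicate 2 and 0 without WT replicate 2, and the edgeR count was 40 without vehicle replicate 1 and 57 with no filter on low counts.

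**Figure D1:**
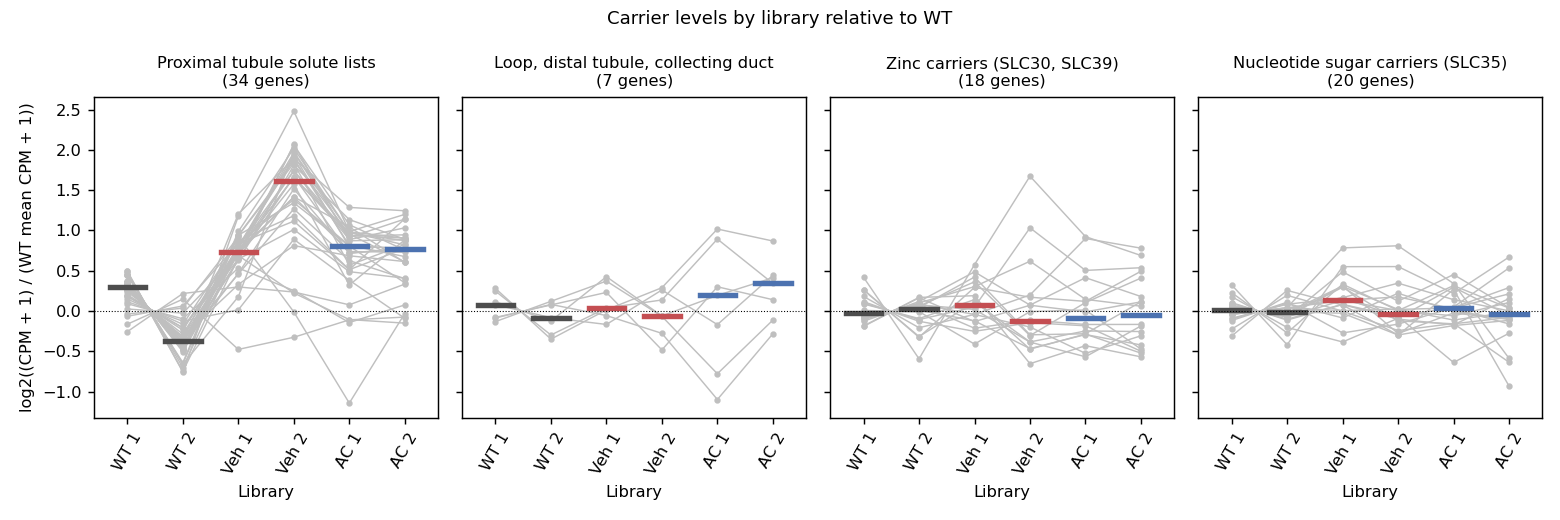
Level of each carrier in each of the 6 libraries relative to the WT mean, on the scale log2((CPM + 1) / (WT mean CPM + 1)), for 4 lists of carriers. Grey lines are genes and the coloured bars are library medians (WT grey, vehicle red, AC1903 blue). The median of the 34 proximal tubule carriers is lowest in WT replicate 2 and highest in vehicle replicate 2, and the medians of the 18 zinc and 20 nucleotide sugar carriers stay close to 0.

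Proximal tubule carriers were listed for glucose, phosphate with sulfate and dicarboxylates, amino acids, organic anions and organic cations. These lists were chosen with earlier results of these data known, so their direction is no independent test. For the 39 carriers listed, 34 IDs were measured. Their summed level was 2459.9 and 1718 CPM in WT, 3271 and 6218 in vehicle and 3517 and 3483 in AC1903. In 33 of 34 the log2 difference between vehicle and WT was positive, with a median of 1.3, and DESeq2 called 19 higher. In 28 of the 34 the lowest of the 6 libraries was WT replicate 2 and the highest vehicle replicate 2, the order of 9% of all genes tested. The median was 0.758 without vehicle replicate 2 and 0.754 with age in weeks as a covariate, with 33 of 34 still positive in both fits. Vehicle replicate 2 came from the youngest rat (17.4 weeks), so the age fit rests in part on that library. The fits are therefore not fully separate checks.

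Glucose is recovered by SLC5A2, the apical sodium-glucose cotransporter SGLT2, and leaves the cell through SLC2A2, the facilitative transporter GLUT2. SLC5A2 (ENSRNOG00000020039) stood at 179 and 118 CPM in WT, 249.7 and 498 in vehicle and 276 and 305 in AC1903. Both vehicle libraries lay above both WT libraries, with a log2 difference of 1.33 ± 0.33 (SE; DESeq2 adjusted p = 0.00393, edgeR adjusted p = 0.18). SLC2A2 stood at 18.4 and 9.54 CPM in WT, 23.6 and 61.4 in vehicle and 30.4 and 24.3 in AC1903 (log2 difference 1.6 ± 0.45, DESeq2 adjusted p = 0.0145). SLC2A1, the GLUT1 transporter found in most cells, stood at 18.3 and 17.7 CPM in WT, 17.1 and 17.4 in vehicle and 12.9 and 15.0 in AC1903, with both AC1903 libraries below the other 4 (AC1903 minus vehicle -0.30 ± 0.20, edgeR adjusted p = 0.674). Of all genes, 18.4% had both AC1903 libraries below both vehicle libraries, and 23.5% had them below both WT libraries. SLC5A1, the other sodium-glucose cotransporter of the list, is not among the members.

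The phosphate, sulfate and dicarboxylate list had 8 measured members, of which 7 were higher in vehicle and DESeq2 called 6. SLC34A1 (ENSRNOG00000015262), the main sodium-phosphate cotransporter of the proximal brush border, stood at 678 and 518 CPM in WT, 934 and 1902 in vehicle and 984 and 1022 in AC1903. That is a log2 difference of 1.25 ± 0.33 between vehicle and WT (DESeq2 adjusted p = 0.00454), with vehicle replicate 2 far above replicate 1. SLC34A3, the second renal phosphate cotransporter, stood at 57.2 and 43.5 CPM in WT, 85.1 and 161 in vehicle and 97.0 and 97.9 in AC1903. SLC13A1 (ENSRNOG00000008121), the apical sodium-sulfate cotransporter, had the smallest unadjusted p of all members, 0.000732 (edgeR adjusted p = 0.162). Its level was 36.6 and 19.9 CPM in WT, 66.4 and 107 in vehicle and 70.3 and 68.3 in AC1903, so the AC1903 libraries also lay above both WT libraries. SLC26A1, a basolateral sulfate exchanger, stood at 43.8 and 20.1 CPM in WT, 64.3 and 133 in vehicle and 64.1 and 60.7 in AC1903. The citrate and dicarboxylate carriers SLC13A2 and SLC13A3 had log2 differences of 1.29 ± 0.37 and 1.28 ± 0.33, and both passed in DESeq2. The 2 phosphate carriers of the SLC20 subfamily, which serve most cells, did not share this order. SLC20A1, the exception among the 8, stood at 94.9 and 118 CPM in WT, 76.2 and 84.7 in vehicle and 98.6 and 101 in AC1903, with both vehicle libraries below both WT libraries (log2 difference -0.40 ± 0.17, edgeR adjusted p = 0.373).

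Promoter sequence is shown for 3 of these proximal carriers, SLC34A1, SLC22A8 and SLC6A19, because they share a short element. The element is GTTAAT, the conserved arm of the binding site of HNF1 transcription factors, which are known regulators of proximal tubule genes. It was searched on both strands in the 250 bases before the start of each gene in RefSeq (build GRCr8), and matches were by symbol for 171 of 230 members. It occurred in 4 of 25 matched members of the proximal lists (16%), in 9 of 146 other members (6.16%) and in 6.45% of all 33469 promoter windows. A member counted if any window with its symbol held the element, whereas the last share counts single windows, so the units differ. Both IDs of SLC22A25, matched by 1 symbol, are among the 9. The element was chosen after the carrier levels were known, and a match is no evidence of binding. The stretches are 100 bases each, read 5′ to 3′ on the strand of the gene, with the element in capitals in either orientation (ATTAAC is its reverse complement). They lie at chr17:9239051-9239150 (minus strand) for SLC34A1, chr1:214927144-214927243 (plus strand) for SLC22A8 and chr1:31414581-31414680 (plus strand) for SLC6A19.
SLC34A1: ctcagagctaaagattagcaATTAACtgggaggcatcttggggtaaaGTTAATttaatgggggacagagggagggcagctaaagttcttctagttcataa
SLC22A8: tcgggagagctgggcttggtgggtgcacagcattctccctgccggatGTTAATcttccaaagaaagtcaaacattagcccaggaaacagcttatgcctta
SLC6A19: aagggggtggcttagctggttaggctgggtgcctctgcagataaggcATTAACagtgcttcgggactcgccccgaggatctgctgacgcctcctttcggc
SLC34A1 held 2 copies, at 147 and 120 bases before the start, and SLC22A8 and SLC6A19 held 1 copy each, at 93 and 116 bases. The fourth proximal match, SLC6A18, had a log2 difference of 0.27 between vehicle and WT.

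All 13 measured IDs of the amino acid list had a positive log2 difference, with a median of 1.46, and DESeq2 called 6. SLC6A19, the apical neutral amino acid carrier B0AT1, stood at 39.6 and 16.1 CPM in WT, 64.2 and 159.8 in vehicle and 56.1 and 65.2 in AC1903. Its log2 difference of 2.01 ± 0.49 did not pass in DESeq2 (adjusted p = 0.0853), and the 2 WT libraries themselves differed widely. SLC3A1 and SLC7A9 form the apical cystine transporter, as heavy and light chain. SLC3A1 stood at 173 and 111 CPM in WT, 234 and 380.4 in vehicle and 238 and 236 in AC1903, and SLC7A9 at 34.9 and 14.9 CPM in WT, 43.3 and 98.0 in vehicle and 44.1 and 43.6 in AC1903. The light chains of the basolateral side, SLC7A7 and SLC7A8, had log2 differences of 1.46 ± 0.37 and 1.5 ± 0.40, and both passed in DESeq2. Their common partner SLC3A2, which is made in most cells, had one of 0.52 ± 0.29 and did not pass (DESeq2 adjusted p = 0.501). SLC1A1, the glutamate carrier EAAT3, stood at 14.1 and 9.49 CPM in WT, 21.2 and 48.9 in vehicle and 23.0 and 27.2 in AC1903. SLC43A2, a neutral amino acid carrier, stood at 30.8 and 20.1 CPM in WT, 49.5 and 93.1 in vehicle and 38.2 and 45.8 in AC1903, with the 2 AC1903 libraries below both vehicle libraries. In the list the smallest difference was that of SLC6A18, a glycine carrier of the late proximal tubule, at 26.8 and 37.6 CPM in WT, 39.8 and 38.1 in vehicle and 34.0 and 40.8 in AC1903 (log2 difference 0.27). SLC7A13, a cystine and aspartate carrier of the same late segment and outside the list, stood at 21.1 and 24.1 CPM in WT, 24.8 and 8.06 in vehicle and 3.66 and 20.4 in AC1903, with the replicates far apart in both transgenic groups.

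SLC22 was the 1 subfamily of at least 10 members in which every member, 14 of 14, had a positive log2 difference (median 0.98). These proteins carry organic ions, drugs and carnitine. DESeq2 called 6 of them, 1 of which has the uncertain symbol SLC22A25 (ENSRNOG00000017964). SLC22A6 (ENSRNOG00000018215), the basolateral organic anion transporter OAT1, stood at 105 and 77.2 CPM in WT, 166 and 239 in vehicle and 161 and 146 in AC1903. SLC22A8, the related OAT3, stood at 132 and 75.6 CPM in WT, 161 and 367 in vehicle and 229 and 193 in AC1903. For both, the AC1903 libraries fell between the highest WT and the highest vehicle library. SLC22A2, the organic cation transporter OCT2, had a log2 difference of 0.86 ± 0.27 and did not pass in DESeq2 (adjusted p = 0.0845). SLC22A5, the carnitine carrier OCTN2, stood at 93.4 and 55.9 CPM in WT, 104 and 215 in vehicle and 123 and 129 in AC1903. SLC22A12, the urate exchanger URAT1, had a smaller log2 difference of 0.42 ± 0.19 and did not pass, and neither did SLC47A1, the apical cation exchanger MATE1, at 29.0 and 11.7 CPM in WT, 32.7 and 88.4 in vehicle and 38.0 and 38.4 in AC1903. SLC17A3, a phosphate and urate carrier, stood at 13.5 and 14.8 CPM in WT, 26.1 and 31.8 in vehicle and 20.6 and 32.5 in AC1903, and here the WT libraries agreed closely (DESeq2 adjusted p = 0.0134).

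**Figure D2:**
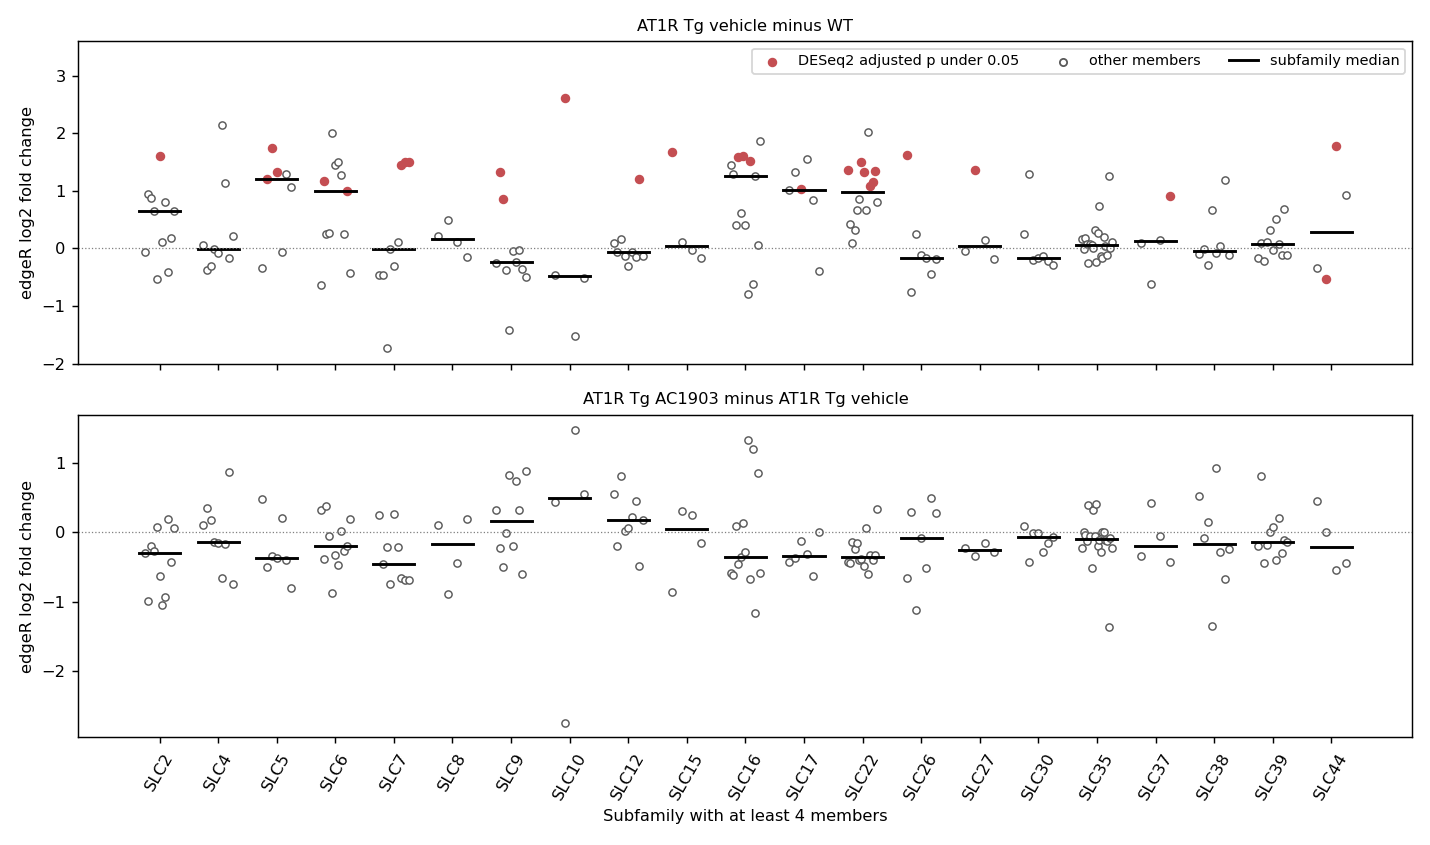
edgeR log2 fold change of each member, by subfamily with at least 4 members, for vehicle against WT (top) and AC1903 against vehicle (bottom). Filled red points passed in DESeq2 and black lines are subfamily medians. All 14 SLC22 members are above 0 in the upper panel, the 20 SLC35 members lie around 0, and no point is filled in the lower panel.

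Monocarboxylate carriers move lactate, ketone bodies and related acids. All 6 of the list were measured, 5 were higher in vehicle and DESeq2 called 2. SLC5A12, the sodium-coupled lactate carrier of the proximal brush border, stood at 61.6 and 28.7 CPM in WT, 98.4 and 205 in vehicle and 122 and 117 in AC1903, and AC1903 passed against WT as well (DESeq2 adjusted p = 0.0339). SLC16A4, a plasma membrane member of the SLC16 subfamily, stood at 22.7 and 12.6 CPM in WT, 38.4 and 62.6 in vehicle and 32.9 and 30.1 in AC1903. SLC16A3, the lactate exporter MCT4 of glycolytic cells, was the member with a negative difference, at 1.54 and 1.90 CPM in WT, 0.778 and 1.22 in vehicle and 1.83 and 3.20 in AC1903. Over the whole SLC16 subfamily 11 of 13 members were positive, with a median of 1.27. They included SLC16A12, a creatine carrier, at 23.8 and 15.2 CPM in WT, 31.6 and 86.0 in vehicle and 39.4 and 46.0 in AC1903, and SLC16A14, whose substrate is not well defined, at 4.92 and 2.47 CPM in WT, 8.0 and 14.3 in vehicle and 14.1 and 10.4 in AC1903.

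Of the 5 acid-base carriers of the list, 2 had a positive difference, and DESeq2 called 1. SLC9A3, the apical sodium-proton exchanger NHE3, stood at 35.3 and 15.5 CPM in WT, 40.5 and 86.1 in vehicle and 51.2 and 57.1 in AC1903 (DESeq2 adjusted p = 0.0413). SLC4A4, the basolateral sodium-bicarbonate cotransporter, stood at 51.9 and 15.7 CPM in WT, 86.1 and 212 in vehicle and 87.0 and 101 in AC1903. Its log2 difference was 2.15 ± 0.56, but it did not pass in DESeq2 (adjusted p = 0.125). SLC4A2, an anion exchanger of most tissues, had a log2 difference of -0.01. SLC9A3R1, the NHERF1 scaffold of the proximal brush border, stood at 102 and 81.9 CPM in WT, 132 and 200.2 in vehicle and 108 and 127 in AC1903, and it passed in DESeq2. Its relative SLC9A3R2, or NHERF2, a scaffold known in glomeruli, ran the other way, at 1244 and 1425 CPM in WT, 1034 and 1026 in vehicle and 1117 and 937 in AC1903. The WT and vehicle libraries of SLC9A3R2 did not overlap, and the difference did not pass (DESeq2 adjusted p = 0.365).

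Single members of other subfamilies were higher in vehicle as well. SLC5A11, an inositol cotransporter, and SLC6A13, a carrier of GABA and betaine, had log2 differences of 1.21 ± 0.28 and 1.18 ± 0.28, and both passed in DESeq2. SLC27A2, which takes up and activates very long chain fatty acids, stood at 97.8 and 56.0 CPM in WT, 149 and 247 in vehicle and 169 and 143 in AC1903, while the other 3 members of SLC27 lay within 0.20 of 0 on the log2 scale. SLC15A1, the intestinal and renal peptide carrier PEPT1, stood at 7.68 and 4.04 CPM in WT, 12.2 and 25 in vehicle and 10.3 and 10.1 in AC1903, and SLC15A2, or PEPT2, at 7.68 and 6.42 CPM in WT, 7.22 and 8.06 in vehicle and 9.57 and 9.35 in AC1903. For SLC15A2 the WT and vehicle libraries overlapped, and both AC1903 libraries lay above them (AC1903 minus vehicle 0.31 ± 0.27, edgeR adjusted p = 0.75). Both AC1903 libraries lay above both vehicle libraries in 19.9% of all genes and above both WT libraries in 24.2%. SLC28A1, a concentrative pyrimidine nucleoside carrier, stood at 2.51 and 0.922 CPM in WT, 4.53 and 9.60 in vehicle and 4.41 and 3.44 in AC1903, whereas neither ID of SLC28A2, the purine carrier, passed. SLC6A8, the creatine carrier, stood at 132 and 99.2 CPM in WT, 179 and 285 in vehicle and 205 and 202 in AC1903, and SLC37A4, the glucose-6-phosphate carrier of the endoplasmic reticulum used in gluconeogenesis, at 109 and 84.3 CPM in WT, 142 and 221 in vehicle and 139 and 131 in AC1903. SLC31A1, the copper importer, and SLC40A1, the iron exporter ferroportin, had log2 differences of 0.79 ± 0.21 and 0.85 ± 0.24, of which the first passed in DESeq2. Of the 39 members that DESeq2 called higher, 38 were highest in vehicle replicate 2 and 37 were lowest in WT replicate 2. Of all 13426 genes tested, 2834 and 2700 were. The median log2 difference of the 39 was 1.35, and 0.803 without vehicle replicate 2. These members were picked for higher levels in vehicle in the same libraries. Their order and medians were therefore partly set by the choice.

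**Figure D3:**
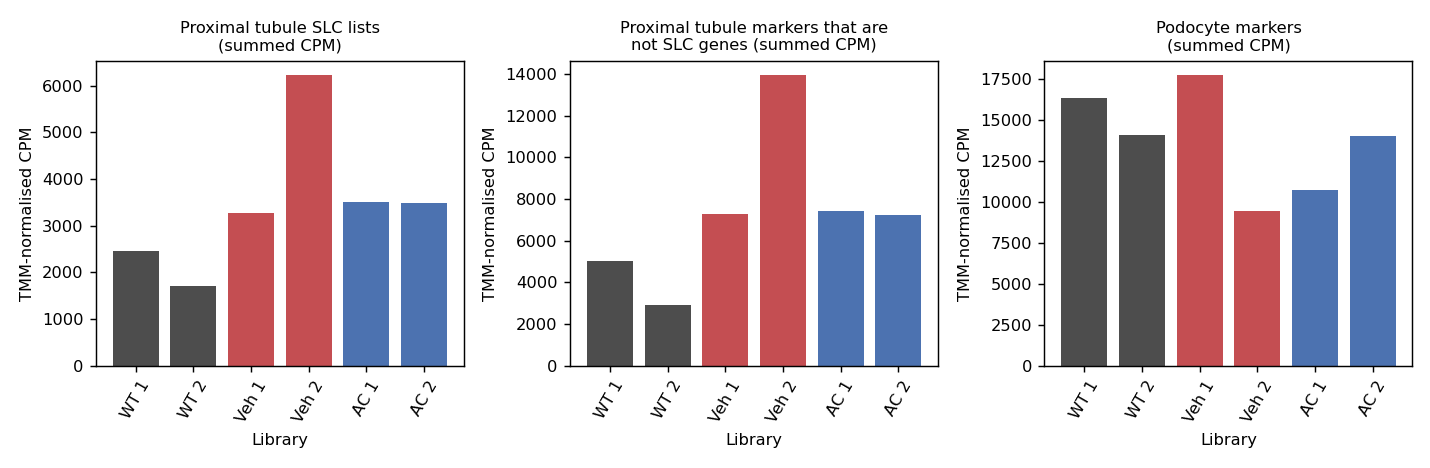
Summed level in each library of the 34 measured proximal tubule carriers (left), of the proximal tubule markers that are not SLC genes (middle) and of the podocyte markers (right), in TMM-normalised CPM, with 1 bar per library. The left and middle panels have the same order of libraries at their ends, with WT replicate 2 lowest and vehicle replicate 2 highest, and podocyte markers were lowest in vehicle replicate 2.

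The 7 measured carriers of the loop, distal tubule and collecting duct had a median log2 difference of 0.09 between vehicle and WT. DESeq2 called 0 of the 7, against 3.85% of all genes higher and 0.403% lower, so this count is near those shares. edgeR called no member of any list. SLC12A1, the furosemide-sensitive cotransporter NKCC2 of the thick ascending limb, stood at 133 and 91.0 CPM in WT, 115 and 123 in vehicle and 209 and 142 in AC1903. SLC12A3 (ENSRNOG00000018607), the thiazide-sensitive cotransporter of the distal tubule, stood at 23.9 and 15.1 CPM in WT, 19.7 and 24.0 in vehicle and 40.4 and 36.4 in AC1903. Both AC1903 libraries lay above the other 4 for each of these genes. Of all genes, 19.9% had both AC1903 libraries above both vehicle libraries, and 24.2% had them above both WT libraries. The log2 difference of SLC12A3 between AC1903 and vehicle was 0.81 ± 0.24, the smallest unadjusted p among members in that comparison, 0.00957, with an edgeR adjusted p of 0.549. The collecting duct exchangers SLC26A4 (pendrin) and SLC4A9 did not share it, at log2 differences of -0.51 and -0.75. Markers of these segments that are not SLC genes, 15 symbols with 16 IDs, summed to 424 and 382 CPM in WT, 422 and 453 in vehicle and 619 and 610.5 in AC1903. Of these 16, 10 were higher in AC1903 than in vehicle, with a median log2 difference of 0.57, and their part was not tested. SLC4A1, the anion exchanger of red cells and of intercalated cells, stood at 20.8 and 18.5 CPM in WT, 17.4 and 23.8 in vehicle and 17.4 and 27.1 in AC1903, while the 6 IDs of 3 erythroid markers, 2 of them at 0 in a library, summed to 199.7 and 107 CPM in WT, 21.0 and 50.4 in vehicle and 268 and 13.6 in AC1903.

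Zinc carriers, SLC30 for export and SLC39 for import, showed little difference. Of 18 members 8 were positive between vehicle and WT, the median was -0.07, and neither edgeR nor DESeq2 called any. Of all genes, edgeR called 0.0745%, and DESeq2 called 3.85% higher and 0.403% lower. No call among 18 members is near those shares. SLC30A2 had the largest difference, at 18.1 and 8.48 CPM in WT, 20.3 and 44.6 in vehicle and 26.1 and 22.1 in AC1903, in the order of the proximal carriers. SLC39A10, a plasma membrane zinc importer, was level between WT and vehicle and higher with AC1903, at 11.5 and 8.54 CPM in WT, 9.70 and 11.6 in vehicle and 19.5 and 17.9 in AC1903 (AC1903 minus vehicle 0.81 ± 0.25, edgeR adjusted p = 0.549). The nucleotide sugar carriers of the Golgi and endoplasmic reticulum, with their SLC35 relatives, were the largest subfamily, with 20 members. Their median was 0.06, the summed level was 494 and 497 CPM in WT, 541 and 498 in vehicle and 496 and 484 in AC1903, and 0 of 20 had an unadjusted p under 0.05 in edgeR or passed in DESeq2. Among the subfamilies with at least 4 members, SLC8 (4 members) and SLC39 (11 members) also had none under an unadjusted p of 0.05 in that comparison. Of all genes, 8.57% were higher and 3.35% lower at that threshold, so 0 in subfamilies this small is near those shares. Several smaller subfamilies had none either.

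Members at lower levels in vehicle than in WT were fewer, and DESeq2 called 1 of 230, near the 0.403% of all genes that it called lower. SLC44A2 (ENSRNOG00000031824), a choline carrier, was the 1 that DESeq2 called, at 386 and 389 CPM in WT, 271 and 265 in vehicle and 283 and 256 in AC1903, a log2 difference of -0.53 ± 0.16 (DESeq2 adjusted p = 0.0265, edgeR adjusted p = 0.214). The AC1903 libraries lay at the vehicle level. SLC7A4, a member of the cationic amino acid carrier group, stood at 3.45 and 5.07 CPM in WT, 1.49 and 1.06 in vehicle and 1.5 and 0.719 in AC1903, with all 4 transgenic libraries below both WT libraries. Of all genes, 23.4% had both vehicle libraries and 23.5% both AC1903 libraries below both WT libraries. The share with all 4 below was not counted. SLC26A10 stood at 45.6 and 62.2 CPM in WT, 27.6 and 36.5 in vehicle and 44.1 and 34.5 in AC1903. SLC19A2, a thiamine carrier, stood at 77.2 and 64.5 CPM in WT, 59.7 and 31.9 in vehicle and 48.9 and 57.2 in AC1903, and SLC48A1, a heme carrier of the endolysosome, at 602 and 635 CPM in WT, 545 and 299.8 in vehicle and 295 and 404 in AC1903, lowest in vehicle replicate 2 and AC1903 replicate 1. None of these 4 passed in edgeR or DESeq2. Glomerular endothelial markers, all 10 measured and all 10 lower in vehicle than in WT, summed to 9353 and 9300.4 CPM in WT, 6549.9 and 7041 in vehicle and 9289 and 7216 in AC1903, and their part in these differences was not tested.

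The second comparison asked what AC1903 changes in transgenic rats. It shares the vehicle libraries with the first, so a value high in vehicle pushes the comparisons in opposite directions. No member passed in edgeR, limma-voom or DESeq2, where 0%, 0% and 0.439% (higher) or 0.0596% (lower) of all genes did. At an unadjusted p under 0.05 in edgeR 11 members were higher and 7 lower, against 5.35% and 2.77% of all genes. Of 227 members listed in the authors' deposited table for this comparison, 0 passed, against 0.369% of all genes higher and 0.00821% lower. The groups did not overlap in 33 members that were higher and 47 that were lower with AC1903, against 19.9% and 18.4%. Of the 230 members 148 were negative, with a median of -0.19, beside -0.02 over all genes, of which 47.9% were positive. The proximal lists had a median of -0.439, 32 of 34 negative. That direction turned without vehicle replicate 2 (median 0.035, 20 of 34 positive) and with age as a covariate (0.206, 24 of 34 positive). SLC5A2, SLC34A1 and SLC22A8 show it, in that their AC1903 libraries lay above vehicle replicate 1 and below vehicle replicate 2. The fit without vehicle replicate 2 and that with age are not fully separate checks, because this library came from the youngest rat.

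Of the 33 members with both AC1903 libraries above both vehicle libraries, an order that 19.9% of all genes had, 3 more are described for their small unadjusted p. SLC51A (ENSRNOG00000001765), a subunit of the basolateral organic solute transporter that exports bile acids and steroid conjugates, stood at 3.98 and 3.61 CPM in WT, 4.88 and 5.45 in vehicle and 8.90 and 11.1 in AC1903. Its libraries ordered by group without overlap, and DESeq2 called it against WT (log2 difference 1.40 ± 0.31, adjusted p = 0.0104) but not against vehicle (log2 difference 0.95 ± 0.31). SLC16A7, the pyruvate and lactate carrier MCT2, stood at 11.3 and 6.99 CPM in WT, 7.71 and 11.2 in vehicle and 19.0 and 15.2 in AC1903. SLC12A7, a potassium-chloride cotransporter, stood at 51.2 and 55.1 CPM in WT, 47.3 and 49.2 in vehicle and 60.6 and 71.9 in AC1903. The AC1903 libraries were the highest pair for both. None of the 3 passed between AC1903 and vehicle (edgeR adjusted p = 0.556, 0.602 and 0.577).

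Several members of the bile acid carrier subfamily SLC10 and a few others, named for their small unadjusted p, had both vehicle libraries on 1 side of the other 4. Of all genes, 20.6% had both vehicle libraries above and 23.4% below both WT libraries. Both AC1903 libraries lay above both vehicle libraries in 19.9% of all genes and below them in 18.4%. The share with vehicle apart from all 4 was not counted, so this order is not shown to be particular to SLC10. SLC10A6, a carrier of sulfated steroids, stood at 5.81 and 7.89 CPM in WT, 2.55 and 2.20 in vehicle and 9.15 and 4.16 in AC1903, lower in both vehicle libraries than in the other 4. SLC10A3, which has no settled substrate, had the same order at 33.9 and 34.5 CPM in WT, 23.4 and 26.6 in vehicle and 34.7 and 33.3 in AC1903. SLC10A5 ran the other way at 0.574 and 0.325 CPM in WT, 2.05 and 3.50 in vehicle and 0.166 and 0.639 in AC1903, low values throughout, with a DESeq2 adjusted p of 0.0438 between vehicle and WT. SLC16A6, a carrier of ketone bodies and taurine, stood at 5.60 and 4.31 CPM in WT, 8.42 and 15.5 in vehicle and 6.57 and 4.08 in AC1903. SLC20A2, the second phosphate carrier of most cells, stood at 13.5 and 13.0 CPM in WT, 21.9 and 15.6 in vehicle and 12.2 and 11.8 in AC1903. Each of the 5 had differences of opposite sign in the 2 comparisons, which share the vehicle libraries. edgeR's adjusted p against AC1903 was 0.549, 0.602, 0.549, 0.576 and 0.598 in the order named.

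**Figure D4:**
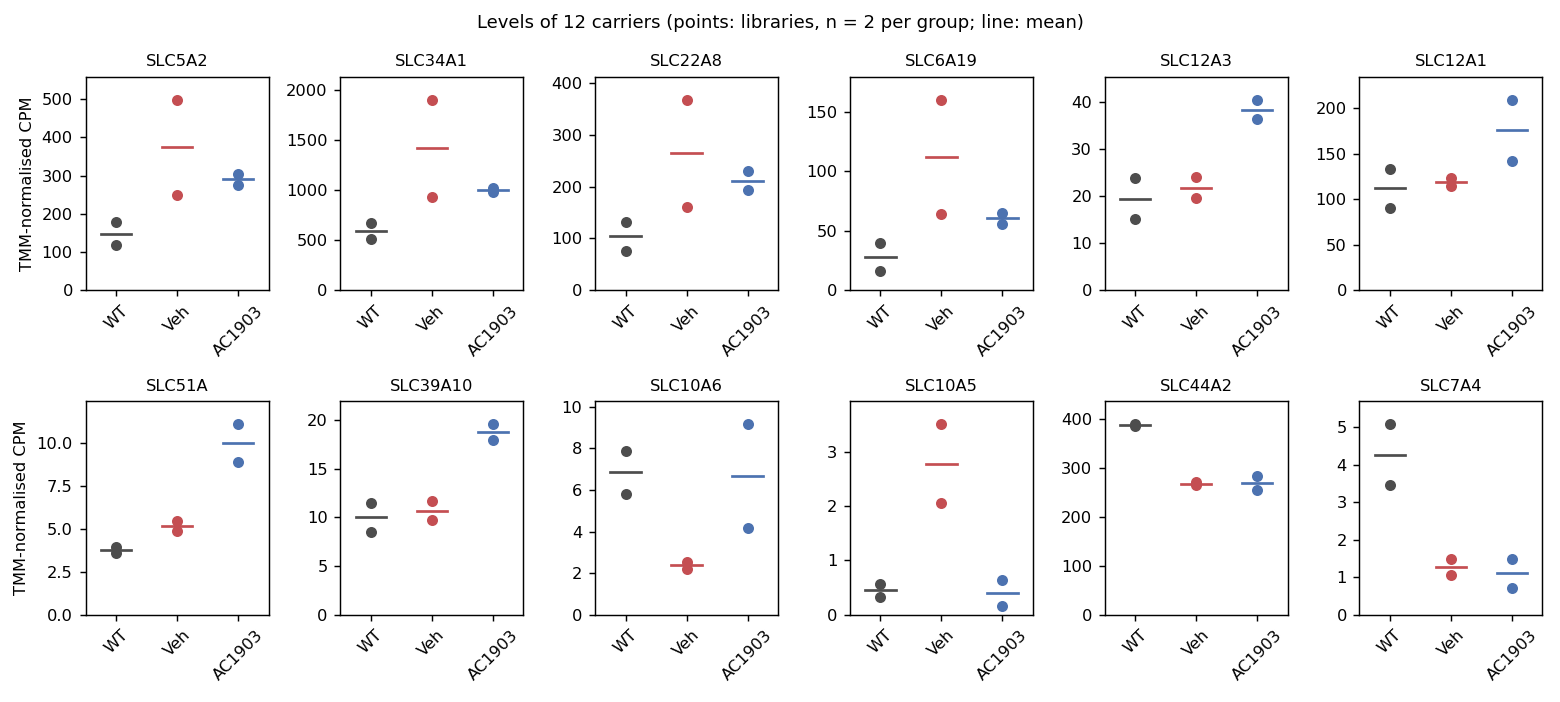
Level of 12 carriers in each library in TMM-normalised CPM, with points for libraries (n = 2 per group) and a line for the group mean, on axes that start at 0. SLC5A2, SLC34A1, SLC22A8 and SLC6A19 peak in vehicle replicate 2, SLC12A3, SLC12A1, SLC51A and SLC39A10 are highest in both AC1903 libraries, SLC10A6 is lowest and SLC10A5 highest in vehicle, and SLC44A2 and SLC7A4 are highest in WT.

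Of the carriers known in phagocytes, SLC11A1, the metal transporter NRAMP1 of macrophage phagosomes, stood at 2.98 and 4.17 CPM in WT, 1.91 and 3.50 in vehicle and 3.49 and 12.9 in AC1903, and AC1903 replicate 2 alone lay above the rest. The 11 measured macrophage and monocyte markers summed to 104 and 179 CPM in WT, 104 and 129 in vehicle and 171 and 264 in AC1903. The sum was also highest in that library, but not every marker was. AIF1 and C1QA were highest in WT replicate 2, and CD14 and C1QC in AC1903 replicate 1. The part of these markers was not tested. SLC15A3, SLC37A2, SLC29A3 and SLC40A1 did not share this order: SLC15A3 stood at 11.4 and 16 CPM in WT, 12.5 and 14.4 in vehicle and 16.5 and 15.6 in AC1903, and SLC29A3, a lysosomal nucleoside carrier, was highest in vehicle at 18.7 and 12.5 CPM in WT, 26.4 and 40.0 in vehicle and 21.1 and 20.7 in AC1903.

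The third comparison set AC1903 against WT, with the WT libraries shared with the first. No member passed in edgeR or limma-voom, against 0.0372% and 0.0521% of all genes, and 34 members were higher and 6 lower at an unadjusted p under 0.05, against 6.92% and 4.2%. DESeq2 called 4 members, all higher, SLC5A12, SLC13A1, SLC16A14 and SLC51A, against 0.879% of all genes higher and 0.469% lower. The median over the members was 0.16 with 140 positive, beside 0.0019 over all genes, of which 50.2% were positive. The proximal lists had 30 of 34 members positive and a median of 0.806, which was 0.463 without WT replicate 2 and 1.22 without WT replicate 1. SLC13A1 had a log2 difference of 1.3 ± 0.31 (DESeq2 adjusted p = 0.0152) and SLC16A14 one of 1.74 ± 0.42 (adjusted p = 0.0185). The DESeq2 count ranged from 0 without WT replicate 2 or AC1903 replicate 1, over 1 without AC1903 replicate 2, to 24 and 25 without vehicle replicates 1 and 2 and 30 without WT replicate 1.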

How the data were processed

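The count table the authors deposited holds expected counts for each Ensembl gene. The submitters' processing notes name STAR 2.5.2b, RSEM 1.3.0 and Rnor_5.0 as aligner, counter and build; no source used here gives the annotation release. Per the file headers, 2 further tables hold the authors' log2 fold changes for vehicle against WT and AC1903 against vehicle. Adjusted p-values stand in the same deposited tables, with no tool named.

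Expected counts were rounded, and filterByExpr kept 13426 of 26319 genes, which were scaled with TMM (trimmed means). The main test, edgeR 4.0.16's quasi-likelihood test (R 4.3.3), was two-sided and fitted to the 6 libraries together, leaving 3 residual degrees of freedom. P-values were adjusted by Benjamini-Hochberg over all genes tested, with a threshold of 0.05. DESeq2 1.42.0 and limma-voom (limma 3.58.1) were run beside it, and DESeq2 with each library left out was added after seeing the data. Levels are TMM-normalised CPM and are not per length, so genes are not compared by level.

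Members and lists were chosen with earlier results of these data known. Named genes were the 8 per direction of smallest p in each comparison with a mean of at least 1 CPM, the smallest p of each subfamily with at least 4 members, and members of fixed lists of renal carriers, of which the text gives a part. SLC2A1, SLC6A8, SLC7A13, SLC9A3R2, SLC16A12, SLC22A25 and SLC31A1 fall outside that rule and were chosen after their values were seen. Promoter sequences are from RefSeq (GRCr8), another build than that of the counts. Some carriers are not reported here by name.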

Additional observations from a re-analysis of the deposited data

How the results depend on the processing

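For vehicle against WT edgeR's 0 calls became 57 with no filter on low counts and 0 to 40 with 1 library left out, and DESeq2 called 40, or 0 to 56 with 1 library left out. For AC1903 against WT edgeR's 0 calls became 23 with no filter, and DESeq2 called 4, or 0 to 30 with 1 library left out. For AC1903 against vehicle DESeq2's 0 calls became 0 to 3. The median log2 difference of vehicle against WT was 0.22 with a filter of 5 CPM in 2 libraries, 0.11 in limma-voom and 0.15 to 0.21 with 1 library left out. That of AC1903 against vehicle was 0.035 with age as a covariate, so its sign turned, -0.22 with no filter and -0.21 to -0.028 with 1 library left out. That of AC1903 against WT was 0.19 with age, 0.22 with the 5 CPM filter and 0.14 to 0.20 with 1 library left out. For the proximal lists in that of AC1903 against vehicle, 20 of 34 members were positive without vehicle replicate 2 and 24 of 34 with age, in place of 2 of 34. The fit without vehicle replicate 2 and that with age are not fully separate, because this library came from the youngest rat. The cause of these shifts was not tested. No sign of pairing by replicate number was seen: deviations of libraries with the same number had correlations of -0.048, -0.134 and -0.028. With 2 libraries per group these values cannot settle whether libraries of the same number were handled together. A fit with the replicate block gave medians of 0.12, -0.18 and 0.14 and 0 calls in each comparison. The 64 values chosen by smallest p kept their direction under the alternatives run, and those that newly passed did so in DESeq2 (23 of 64), with no filter (31 of 64) or with 1 library left out (18, against 366 that did not). The small number of libraries per group limits the precision of every value, and the 16 members under 1 CPM in a group are the least precise.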
